A study of Laccaria bicolor with 4 samples.

Results

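The genes described here lie on the scaffolds of the Laccaria bicolor V2 genome that are numbered 20 or more. They were chosen by the scaffold number alone, which gave 1176 of the 23125 genes in the deposited tables, on 35 scaffolds. Of these scaffolds, 15 carry 10 or more genes (1087 genes), and the other 20 carry 89 genes between them. The tables name 10 other sequences as linkage groups (18184 genes), and scaffolds 11 to 19 hold the remaining 3765 genes. Neither the small scaffolds nor scaffolds 11 to 19 bear the name of a linkage group.

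Total RNA was sequenced from wild-type mycelium of L. bicolor (Maire) Orton, haploid monokaryotic strain S238N-H82. The mycelium of 2 libraries had received vitamin C at 5 mM during 2 days, and that of the other 2 was untreated. All mycelium came from liquid medium after 8 weeks, with 2 biological replicates per condition according to the submitters. The stranded libraries hold RNA over 200 nt without ribosomal RNA, and transcripts were not selected for a polyA tail. Levels are given in TPM, the share of a gene among the transcripts of a library, corrected for length and scaled to a sum of 1000000. A gene is called expressed where the mean TPM of its condition exceeds 0.05, the threshold of the study, and silent otherwise.

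L. bicolor is an ectomycorrhizal basidiomycete, a fungus that lives in symbiosis with tree roots, and its genome is rich in transposable elements (TEs). A genome assembly joins sequence reads into scaffolds, and genetic markers then place the larger scaffolds on linkage groups, which stand for chromosomes. Small scaffolds that are left over often hold sequence that is hard to assemble, such as clustered repeats. In fungi TEs are commonly silenced by DNA methylation and heterochromatin, and genes close to them can be silent too. Vitamin C is a cofactor that keeps the iron of TET dioxygenases, which oxidize 5-methylcytosine, in its active form. The deposited tables pair no gene with a name or product, and 0 of the 23125 identifiers were found among the RefSeq genes of assembly V1. The genes are therefore described by position, with no role given, and markers of mycelium could not be checked. TE positions were not used here, and the sources used here do not say whether a scaffold belongs to the nuclear or to the mitochondrial genome.

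By aligned bases, depth was highest in vitamin C replicate 1 and broadly alike in the other libraries. Aligned bases, worked out from coverage over FPKM (fragments scaled by gene length and library size), came to 5.65 and 4.27 Gb with vitamin C and to 4.2 and 4.4 Gb in untreated mycelium. Among the genes on the small scaffolds with a TPM above 0.05, the median coverage was 28.2 and 22.9 reads in the vitamin C libraries and 21.8 and 21.4 reads in the untreated libraries. Over all genes above the threshold it was 57.5 and 39.1, against 40.5 and 47.5. TPM values are not read counts, so no counting interval is given.

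Most genes on the small scaffolds were silent in both conditions. With vitamin C 512 of the 1176 genes were expressed (43.5%), and in untreated mycelium 509 (43.3%), against 65.8% and 66.3% of the 21949 genes elsewhere in the genome. The single libraries gave 505 and 496 genes above 0.05 TPM with vitamin C and 494 and 497 in untreated mycelium. Most silent genes were listed at 0, which need not mean that no transcript was present. The paper states that TEs might map to several places in these genomes, and what this does to the levels here was not tested. Of the 651 genes that were silent in both conditions, 96.6% were listed at 0 in all 4 libraries, which makes 629 genes or 53.5% of all genes on the small scaffolds (31.6% in the rest of the genome). The expressed genes had a median TPM of 8.05 with vitamin C (interquartile range 1.20 to 29.3) and 7.11 in untreated mycelium (1.25 to 25.9). Elsewhere the medians were 15.2 and 15.4. A mean TPM under 1 was found for 22.7% of the expressed genes with vitamin C and 22.6% of those in untreated mycelium, against 12.1% and 11.7% elsewhere. In bulk RNA of mycelium, fewer cells that transcribe a gene and fewer transcripts per cell cannot be told apart. Genes of 1 scaffold are not replicates, so these shares are descriptions with no test of their difference.

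The share of expressed genes differed far more among the small scaffolds than between the conditions. The scaffold just outside the choice, scaffold 19, had 75.2% of its 226 genes expressed with vitamin C and 76.1% in untreated mycelium. Scaffold 20, the first one inside, had 64.7% of 190 genes expressed in each condition, close to the rest of the genome. Among the 15 scaffolds with 10 or more genes the share ran from 5.56% on scaffold 28 to 100% on scaffold 29. On 8 of the 15 scaffolds with 10 or more genes, namely scaffolds 22, 23, 25 to 28, 30 and 31, the share was below that of all the 19 other sequences of the genome in both conditions. The lowest of those 19 was linkage group 5, with 41.7% and 42.3%.

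**Figure D1:**
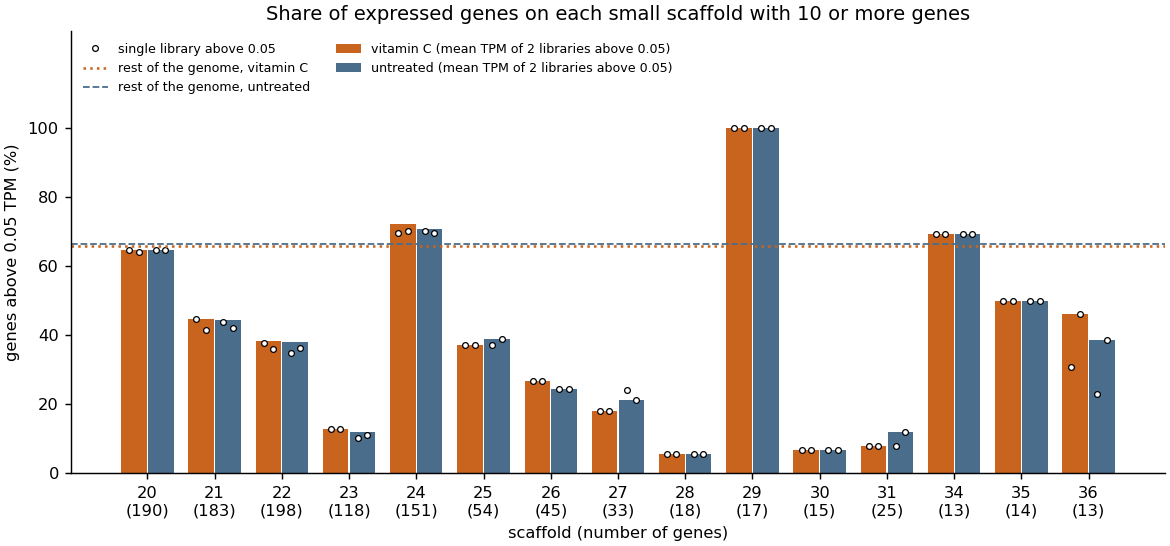
Share of genes with a TPM above 0.05 on each of the 15 small scaffolds with 10 or more genes (x axis: scaffold and its number of genes; y axis: percent of genes). Bars use the mean TPM of the 2 vitamin C or the 2 untreated libraries, open points are single libraries, and lines give the rest of the genome (65.8% and 66.3%). Scaffolds 28, 30, 31 and 23 stand at 5.56% to 12.7% and scaffold 29 at 100%, with bars of about the same height in both conditions except on scaffolds with few genes.

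Scaffold 23 was the largest of the nearly silent scaffolds. Its 118 genes extend over 362 kb, and 15 of them were expressed with vitamin C (12.7%) and 14 in untreated mycelium (11.9%). At 0 in all 4 libraries stood 97 genes. Of the expressed genes 10 in each condition had a mean TPM under 1, and the medians of all expressed genes were 0.40 TPM with vitamin C and 0.47 TPM in untreated mycelium. One gene of 453 bp, on the minus strand from 250260 to 250712, stood apart from this background. It reached 261 and 197 TPM in the vitamin C libraries and 142 and 199 TPM in the untreated libraries. These ranges overlap, and the gene carried 91.2% of the summed TPM of the scaffold with vitamin C and 93.6% in untreated mycelium.

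The other transcripts of scaffold 23 were few and weak. A gene from 222023 to 222582 stood at 6.39 and 1.72 TPM with vitamin C and at 2.14 and 5.87 TPM in untreated mycelium, so the replicates of each condition differed more than the condition means of 4.06 and 4.01 TPM. A pair of neighbouring genes on the plus strand was weakly transcribed in every library. The first, from 91471 to 93518, had 3.24 and 2.79 TPM with vitamin C and 3.73 and 2.00 TPM in untreated mycelium. The second, from 93850 to 94434, had 1.58 and 3.58 TPM, against 1.11 and 1.70 TPM. A gene from 220050 to 220501 had 0.645 and 0.734 TPM with vitamin C and 0.564 and 1.122 TPM in untreated mycelium. Of these 4 genes all but the one from 93850 overlap another model, and overlapping models can share reads. With the 15 genes of scaffold 23 that overlap another model left out, 7 genes were expressed with vitamin C (6.80%) and 6 in untreated mycelium (5.83%).

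On scaffolds 28 and 30 a single gene was transcribed. Of the 18 genes of scaffold 28, the one on the plus strand from 44025 to 45046 had 18.2 and 34.7 TPM with vitamin C and 24.0 and 54.2 TPM in untreated mycelium. The other 17 were listed at 0 in all libraries. Of the 15 genes of scaffold 30, the one on the minus strand from 9501 to 10542 had 4.48 and 4.18 TPM with vitamin C and 5.70 and 12.2 TPM in untreated mycelium. Both vitamin C libraries lie below both untreated libraries for this gene, and it did not pass the test (adjusted p = 0.38 from limma). The other 14 were at 0 throughout.

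Scaffold 31 had 25 genes, of which 2 were expressed with vitamin C and 3 in untreated mycelium, and 22 were at 0 in all libraries. Its transcription came from adjacent genes on opposite strands, 163 bp apart. The gene on the minus strand from 10079 to 10514 had 29.4 and 18.3 TPM with vitamin C and 16.4 and 7.65 TPM in untreated mycelium (adjusted p = 0.35 from limma). Its neighbour on the plus strand, from 10678 to 11944, had 5.07 and 5.33 TPM, against 4.35 and 5.23 TPM. Both libraries with vitamin C were the higher ones for the first gene, and the conditions overlapped for the second.

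Scaffold 29 was the opposite case. All of its 17 genes were expressed in all 4 libraries. Their median was 636 and 1012 TPM in the vitamin C libraries and 858 and 1031 TPM in the untreated libraries. By the condition means, 16 of the 17 genes reached 100 TPM in each condition, against 8.72% of the genes outside the small scaffolds in untreated mycelium. The 17 genes held 1.70% and 2.36% of all TPM in the vitamin C libraries and 2.22% and 2.56% in the untreated libraries. A mean of 1000 TPM or more over the 4 libraries was reached by 11 genes of the small scaffolds, of which 9 lay on scaffolds 29 and 33 and the others on scaffolds 20 and 25.

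The highest gene of scaffold 29, and of all small scaffolds, was a model of 292 bp on the plus strand from 35888 to 36179. It stood at 5147 and 7362 TPM with vitamin C and at 7328 and 7630 TPM in untreated mycelium. Next came the longest model, of 6077 bp, from 62108 to 68184 on the plus strand, with 2220 and 2733 TPM, against 2480 and 3246 TPM. A shorter model on the same strand, from 67545 to 68129, lies inside its span and had 129 and 193 TPM, against 127 and 152 TPM. Reads over the shared stretch could be assigned to either model. The exception among the 17 was a gene of 301 bp on the minus strand from 40968 to 41268, with 2.21 and 21.0 TPM with vitamin C and 3.21 and 2.45 TPM in untreated mycelium. Vitamin C replicate 2 alone was high for this gene.

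**Figure D2:**
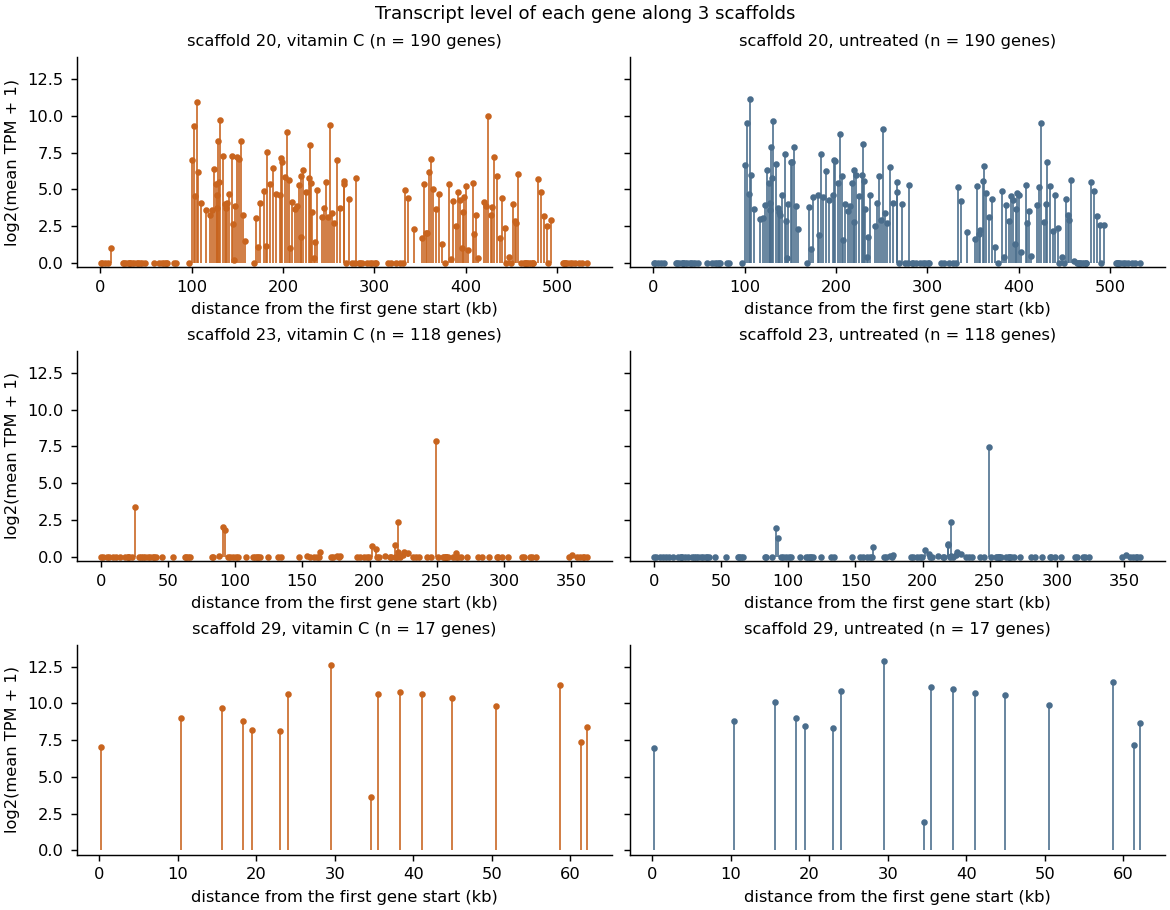
Level of each gene along scaffolds 20, 23 and 29 (x axis: distance of the gene's middle from the first gene start, in kb; y axis: log2(mean TPM + 1) of 2 libraries; vitamin C at left, untreated at right). Scaffold 20 alternates between blocks of expressed and silent genes, scaffold 23 has 1 high gene of 118, and all 17 genes of scaffold 29 are above the threshold.

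Scaffold 33, with 6 genes, was also expressed throughout at high levels. The sources used here do not say whether scaffolds 29 and 33 are nuclear or mitochondrial sequence, so it is unknown which genome their TPM and their share of all TPM stand for. All 6 were expressed in every library, with levels from 143 to 2560 TPM in vitamin C replicate 1, 294 to 3506 TPM in vitamin C replicate 2, 254 to 2902 TPM in untreated replicate 1 and 226 to 3382 TPM in untreated replicate 2. Scaffold 39 was also fully expressed, at ordinary levels. Its 9 genes had a median of 14.8 TPM with vitamin C and 11.7 TPM in untreated mycelium, and 8 of the 9 lie on the minus strand. Among the 20 scaffolds with fewer than 10 genes, these were the 2 on which every gene was expressed in both conditions. On 11 others, with 1 to 6 genes each and 38 in all, no gene was expressed in either condition. The remaining 7 were mixed.

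Genes were widely spaced on the 2 scaffolds with the highest levels. On scaffold 29 the median distance between neighbouring models was 2061 bp, the widest of the 15 scaffolds with 10 or more genes, and its models had a median span of 762 bp and covered 33% of the extent from the first to the last gene, the lowest of the 15. On scaffold 33 the median distance was 4869 bp and the models covered 15.4%. Wide spacing was not particular to high levels, since on scaffold 32, whose 6 genes were at 0 in all libraries, the median distance was 3797 bp and the models covered 30.1%. On scaffold 23 the median distance was 716 bp, the median span 954 bp and the covered share 44.3%. Scaffolds 28, 30 and 31 had median distances of 1385, 1079 and 794 bp. Over all small scaffolds the median distance was 639 bp and the median span 1022 bp, against 518 bp and 1199 bp in the rest of the genome. Among the 15 scaffolds with 10 or more genes, gene density ran from 2.47 genes per 10 kb on scaffold 28 to 5.33 on scaffold 36. Scaffold 29 had 2.72 genes per 10 kb, the same as scaffold 25 with 2.72.

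Pooled over the small scaffolds, expressed genes had longer models than silent genes, though not on every scaffold. The median span was 1205 bp for genes expressed in either condition and 873 bp for genes silent in both, and the same order held elsewhere (1375 bp and 837 bp). The order was the other way on scaffold 22 (805 bp and 824 bp), scaffold 23 (722 bp and 955 bp), scaffold 30 (1042 bp and 1268 bp) and scaffold 35 (543 bp and 864 bp), and over the scaffolds with under 10 genes (918 bp and 1069 bp). For scaffolds 22 and 23 this rested on genes expressed in 1 condition alone. Genes expressed in both conditions had longer models than silent genes there (908 bp and 824 bp, 1453 bp and 955 bp). On scaffolds 30 and 35 they remained shorter. On scaffold 20, genes expressed in both conditions had a median span of 1384 bp and silent genes 842 bp, and the distance between neighbours was 393 bp where both were expressed and 734 bp where both were silent. Scaffold 21 had distances of 464 bp and 915 bp, and scaffold 23 422 bp (4 pairs only) and 792 bp. Distances were wider between expressed than between silent neighbours on scaffold 24 (447 bp and 311 bp), scaffold 26 (393 bp and 354 bp), scaffold 34 (517 bp and 444 bp) and scaffold 35 (688 bp and 258 bp).

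On the larger scaffolds, expressed and silent genes lay in blocks. Neighbouring genes shared their class in 84.2% of 1141 neighbour pairs on the small scaffolds in untreated mycelium, and in 86.0% of pairs elsewhere. On scaffold 20 the share was 90.5%. There 30 genes from 100678 to 161922 and 43 genes from 173054 to 278351 were expressed without a break in both conditions, with a median of 24.0 TPM with vitamin C and 24.5 TPM in untreated mycelium in the first block and of 27.1 and 22.2 TPM in the second. Silent blocks flanked them. The 22 genes from 27240 to 99702 and the 14 genes from 281278 to 334203 were listed at 0 in every library, as were the last 11 genes, from 509048 to 536671. The highest gene of scaffold 20, on the minus strand from 108096 to 109194, lay in the first expressed block and had 2041 and 1968 TPM with vitamin C and 2173 and 2370 TPM in untreated mycelium.

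Scaffold 22 had the longest silent blocks. Its 32 genes from 151559 to 210210 and 30 genes from 7798 to 104440 were at 0 in all libraries. Its expressed genes lay toward the other end, with 19 in a row from 340523 to 380261. The last of these, on the plus strand from 377831, was the highest gene of the scaffold, with 292 and 304 TPM with vitamin C and 230 and 224 TPM in untreated mycelium. It overlaps silent models from 378026 to 378586, inside its span, and from 380239 to 380406. These models end the row, and expressed genes resume at 380982. For the highest gene the conditions do not overlap in level, and it did not pass the test (adjusted p = 0.33 from limma). Scaffold 25 held 13 silent genes from 120864 to 193327 and, apart from them, 13 expressed genes from 66571 to 101752, with expressed and silent genes interleaved in between. The expressed block had a median of 41.3 TPM with vitamin C and 33.2 TPM in untreated mycelium. Its highest gene, on the plus strand from 96745 to 98687, had 1130 and 1125 TPM with vitamin C and 1010 and 953 TPM in untreated mycelium. Scaffold 26 had 19 silent genes in a row from 25579 to 57563, and scaffold 27 had 19 from 35758 to 101126. On scaffold 26 the highest gene, from 73578 to 75605, had 76.4 and 64.9 TPM with vitamin C and 56.7 and 70.4 TPM in untreated mycelium. On scaffold 27 it was a gene of 315 bp from 19652 to 19966, with 15.2 and 8.68 TPM, against 13 and 17.4 TPM. The conditions overlap for both genes.

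Scaffold 21 held silent blocks of 17, 16 and 12 genes, and its longest expressed block had 15 genes. On it, 82 of 183 genes were expressed with vitamin C and 81 in untreated mycelium, at low levels, with medians of 2.05 and 1.85 TPM, and its highest gene, from 231557 to 234097, reached 75.9 and 84.8 TPM, against 73.6 and 62.1 TPM. About as many of its expressed genes as on scaffold 22 had a mean TPM under 1 (35.4% and 35.5% with vitamin C, 35.8% and 37.3% untreated). Scaffold 24 was more finely mixed. On it 109 of 151 genes were expressed with vitamin C and 107 in untreated mycelium (72.2% and 70.9%). Its longest silent block held 7 genes, and its highest gene, from 45892 to 49839, had 296 and 258 TPM, against 256 and 219 TPM. A model on the same strand, from 47251 to 49100, lies inside the span of that gene. The small scaffolds 34, 35 and 36 were mixed too. On scaffold 34 the 9 genes from 1 to 23947 were expressed and the 4 genes after them were at 0 throughout. Its highest gene, from 807 to 1385, had 55.6 and 45.9 TPM, against 33.7 and 36.9 TPM, and overlaps a model on the other strand. On scaffold 35 a gene from 8277 to 9384 had 35.6 and 27.5 TPM, against 18.5 and 24.7 TPM. Neither passed the test (adjusted p = 0.34 and 0.39 from limma). On scaffold 36 most of the transcription came from 3 genes, of which the highest, from 11092 to 12588, had 281 and 323 TPM with vitamin C and 261 and 224 TPM in untreated mycelium. With 13 genes its share is coarse. In single libraries 4 and 6 genes were above the threshold with vitamin C and 3 and 5 in untreated mycelium.

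Few genes on the small scaffolds lay on different sides of the threshold in the conditions. Of the 1176 genes 496 were expressed and 651 silent in both. Vitamin C mycelium had 16 expressed genes that were silent in untreated mycelium, with a median of 0.187 TPM, and 4 of them reached 1 TPM. Untreated mycelium had 13 that were silent with vitamin C, with a median of 0.149 TPM, and 1 of them reached 1 TPM. Among the 21949 genes elsewhere, 190 had a mean above 0.05 TPM only with the vitamin, and 290 only without it. The larger of these groups was thus the untreated one there, the reverse of the small scaffolds. On the small scaffolds, libraries of different conditions differed in class for 33, 42, 40 and 47 genes. That is 2.81%, 3.57%, 3.40% and 4.00% of the genes, against 2.58%, 2.75%, 2.72% and 2.91% in the rest of the genome. The 2 vitamin C libraries differed for 31 genes (2.64%, against 2.52% elsewhere) and the 2 untreated libraries for 45 (3.83%, against 2.72%). The difference between conditions thus lay within the range seen between replicates or close to it.

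The share of all TPM that the small scaffolds held was 4.08% and 4.99% with vitamin C and 4.61% and 4.96% in untreated mycelium. The means of 4.53 ± 0.64% and 4.78 ± 0.25% (SD, n = 2 each) gave p = 1 in a two-sided exact permutation test. With 2 libraries per condition the smallest p such a test can give is 0.333. Scaffolds 29 and 33 held 2.17% and 3.06% with vitamin C and 2.80% and 3.22% in untreated mycelium, more than all other small scaffolds together in each library. Without them the small scaffolds held 1.91% and 1.92% with vitamin C and 1.81% and 1.74% in untreated mycelium, with no overlap (exact permutation test, p = 0.333, the smallest possible).

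**Figure D3:**
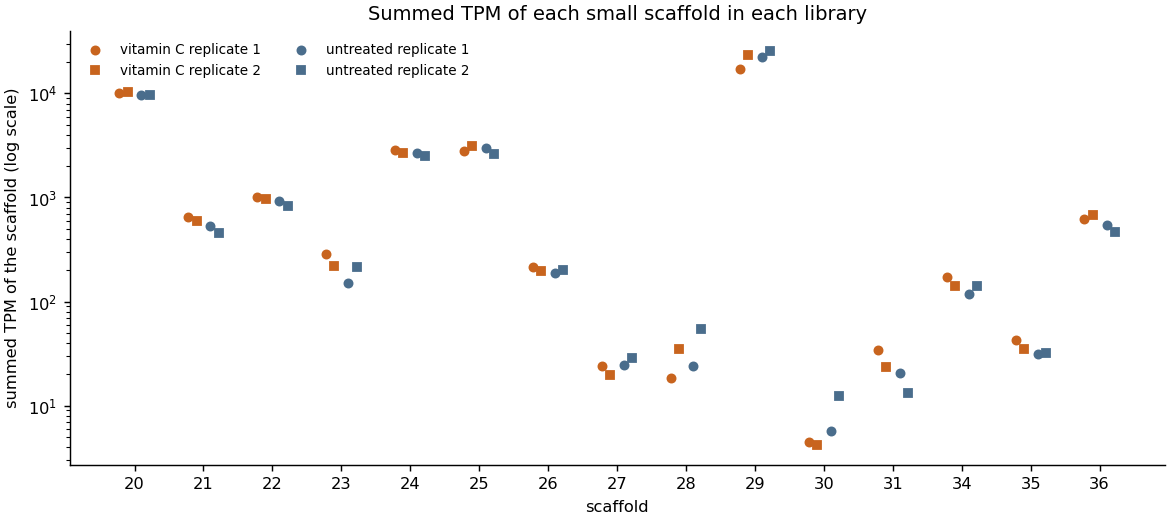
Summed TPM of the genes of each small scaffold with 10 or more genes (x axis: scaffold; y axis: summed TPM on a log scale; each point is 1 library). The sums run from 4.18 TPM on scaffold 30 to 25600 TPM on scaffold 29, and on most scaffolds the libraries of both conditions lie close together.

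The level of scaffold 29 was set apart in 1 library. For 16 of its 17 genes vitamin C replicate 1 was the lowest of the 4 libraries. All 17 genes were lower in vitamin C replicate 1 than in vitamin C replicate 2, with a median log2 ratio of -0.58, while over the rest of the genome the same ratio was 0.17. The median change of the 17 genes on the log2(TPM + 1) scale was -0.22 with all libraries, and 0.09 without vitamin C replicate 1, so its direction rested on that library. None of the 17 passed the test (lowest adjusted p = 0.39 from limma, lowest unadjusted p = 0.056). On scaffold 33 vitamin C replicate 1 was likewise the lowest, with summed TPM of 4723 and 7031 in the vitamin C libraries and 5771 and 6625 in the untreated libraries. Vitamin C replicate 1 is also the library with the most aligned bases. The part of depth in this difference was not tested.

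**Figure D4:**
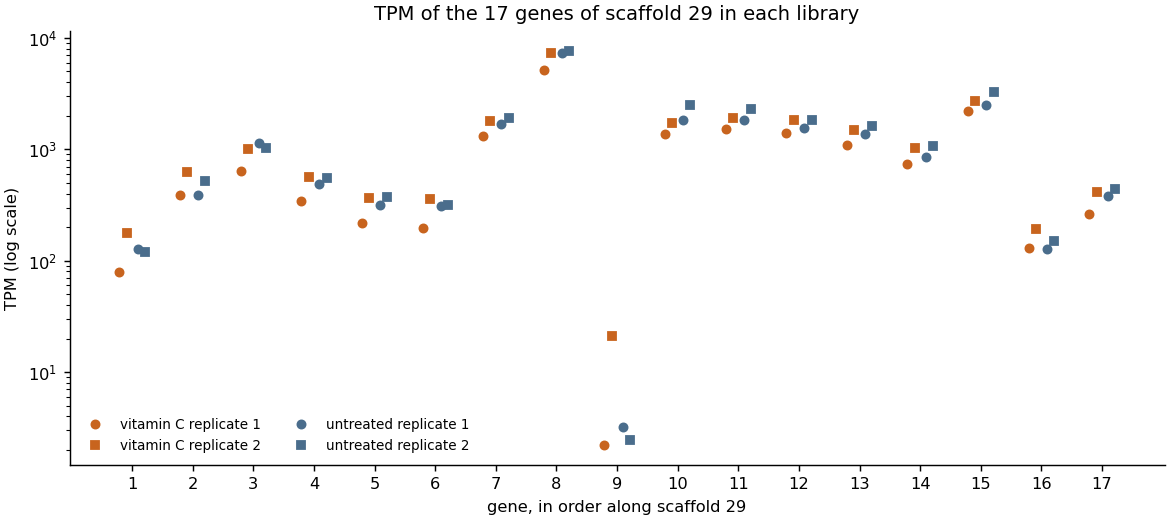
TPM of the 17 genes of scaffold 29, in their order along the scaffold (x axis), on a log scale (y axis), with 1 point for each of the 4 libraries. Vitamin C replicate 1 (orange circles) is the lowest point for 16 genes, and the ninth gene lies far below the others in all libraries, at 2.21 to 21.0 TPM.

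The conditions were compared gene by gene with limma on log2(TPM + 1), over the 15107 genes of the genome whose mean TPM of all 4 libraries exceeded 0.05. Of the 1176 genes on the small scaffolds 520 passed this filter and were tested. Among them 2 were higher with vitamin C and 0 were lower at an adjusted p under 0.05, while in the whole genome 0.0463% of the genes tested were called higher and 0.0463% lower. By the unadjusted p from limma at 0.05, 45 genes were higher (8.65%, against 4.98% of all genes tested) and 18 were lower (3.46%, against 8.13%). With FPKM in place of TPM this split was 38 and 25, and over all genes it was 618 and 1643 in place of 753 and 1228. Both vitamin C libraries lay above both untreated libraries for 156 of the 520 genes (30%, against 21.0% of all genes tested) and below them for 73 (14%, against 24.9%). The log2 change was above 0 for 300 of the 520 genes (57.7%, against 47.7%). This share was uneven among scaffolds, here picked after their values were seen. It was 74.7% of 83 genes on scaffold 21, 53.6% of 110 on scaffold 24 and 13.0% of 23 on scaffolds 29 and 33. The median change of the 520 genes was 0.06 on the log2(TPM + 1) scale, and that of all genes tested was -0.02. The difference in the median change is small. Genes of a library share its scaling, so the shares and medians are given as a description with no test.

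The genes that passed were both listed at 0 in the untreated libraries. Their SD in untreated mycelium was therefore 0, and their own spread in the test came from the vitamin C libraries alone. They also passed the filter on the mean TPM through those libraries alone. On scaffold 23 gene_26806, on the plus strand from 26652 to 27330, had 8.25 and 10.7 TPM in the vitamin C libraries and was listed at 0 in both untreated libraries (adjusted p = 0.0040 from limma). The 2 models on either side of it were at 0 in all 4 libraries. In untreated mycelium it lay inside the longest silent stretch of the scaffold, 31 genes from 1377 to 91562, and with vitamin C the longest was another one, of 20 genes from 95447 to 163666. On scaffold 22 gene_26704, of 302 bp on the minus strand from 286985 to 287286, had 2.25 and 2.17 TPM with vitamin C and was listed at 0 in both untreated libraries (adjusted p = 0.035 from limma). Unlike the first gene it stands among weakly transcribed genes. The 4 nearest models had between 0.414 and 3.00 TPM in all libraries. Neither gene overlaps another model. A listed 0 may also stand for an estimate that failed. With any 1 library left out neither call held (adjusted p from limma between 0.13 and 0.28 for gene_26806 and between 0.23 and 0.41 for gene_26704). With no filter on low values gene_26806 did not pass (0.22), and with no trend in the variance gene_26704 did not (0.089). In the alternatives that keep all libraries the adjusted p from limma ran from 1.7e-10 to 0.22 for gene_26806 and from 1.1e-05 to 0.089 for gene_26704.

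**Figure D5:**
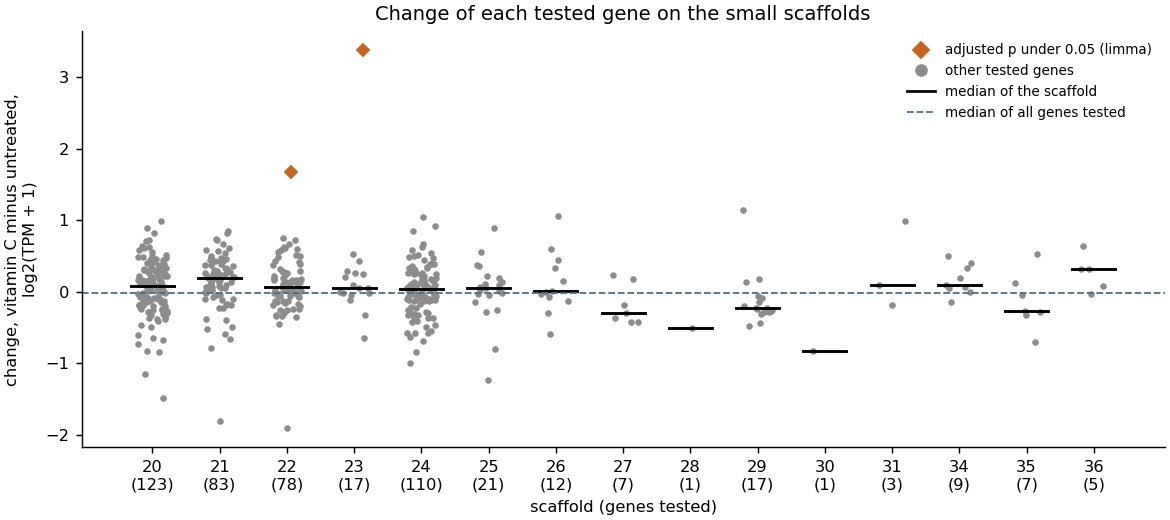
Change of each tested gene, vitamin C minus untreated, on the log2(TPM + 1) scale (y axis), for the small scaffolds with 10 or more genes (x axis: scaffold and genes tested). Grey points are genes that did not pass the test, orange diamonds the 2 that did, on scaffolds 22 and 23, black bars the median of a scaffold, and the dashed line the median of all genes tested, -0.02.

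Other genes differed between the conditions without passing the test at its main settings. Among genes whose conditions did not overlap and that reached 1 TPM in either of them, the next largest positive changes belonged to a gene on scaffold 26 from 3566 to 4428, with 0.878 and 1.32 TPM with vitamin C and listed at 0 in both untreated libraries (adjusted p = 0.18 from limma), and to a gene on scaffold 24 from 50690 to 52134, with 2.11 and 1.44 TPM, against 0.796 TPM and a listed 0. A gene on scaffold 20 from 14251 to 14572 had 0.661 and 1.37 TPM and was listed at 0 in the untreated libraries. It lay alone among silent genes, with the 2 models on either side at 0 throughout. The largest negative change among such genes was that of a gene on scaffold 25 from 20343 to 21361, with 3.84 and 3.21 TPM with vitamin C and 6.28 and 14.5 TPM in untreated mycelium, that is -1.23 on the log2(TPM + 1) scale (SE 0.38, adjusted p = 0.31 from limma). It too had silent models on both sides. A gene on scaffold 20 from 423886 to 425600 had 12 and 14.8 TPM, against 19 and 49.7 TPM. On scaffold 24 a gene from 227845 to 229199 stood at a listed 0 in both vitamin C libraries and had 1.54 and 0.557 TPM in untreated mycelium. A gene on scaffold 20 from 161103 to 161922, the last of its first expressed block, had 1.89 and 1.61 TPM, against 4.56 and 3.36 TPM, and a long model of 6032 bp on scaffold 24 from 167555 to 173586 had 0.895 and 0.856 TPM, against 1.85 and 2.94 TPM. In the alternatives that keep all libraries some of these genes passed. The lowest adjusted p from limma was 0.0052 for the gene from 3566 and 0.035 for that from 50690. It was 0.012 for that from 14251 and 0.013 for that from 227845. For the others it lay between 0.059 and 0.10. The highest value ranged from 0.40 to 0.73 among all these genes. Fitted changes below -1.23 were found for 3 genes, picked out after their values were seen, and each was listed at 0 in vitamin C replicate 2 alone. On scaffold 21 a gene from 366084 to 367038 had 40.9 TPM in vitamin C replicate 1 and a listed 0 in vitamin C replicate 2, against 19.2 and 24.3 TPM. On scaffold 22 a gene from 413995 to 414270 had 21.8 TPM and a listed 0, against 19.9 and 14.4 TPM, and on scaffold 20 a gene from 222055 to 223060 had 4.92 TPM and a listed 0, against 4.86 and 6.95 TPM. A listed 0 thus also occurred in 1 library for genes that the other libraries put well above the threshold. The genes without overlap were picked for their size of change and for groups that do not overlap, so their separation is no finding.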

How the data were processed

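Per the methods, hisat2 placed reads that FastQC had checked and BBDuk had trimmed on the L. bicolor V2 genome. After samtools markdup 1.12 had taken out duplicates, StringTie 2.0.3 estimated levels of annotated genes. Its strand setting is not stated in the sources read. The deposited TPM values sum to 1000000 per library. The deposited FPKM values are scaled by length and aligned bases, and the deposited coverage is the mean read depth over a gene, a signal not scaled by library size. The tables hold no read counts, so no count model was run.

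Tables were joined by identifier, and positions are those of the V2 genome. Spans run from first to last base of a model, and distances from the furthest end of earlier models to the next start. Differences between conditions were tested with limma 3.58.1 (R 4.3.3, variance trend, Benjamini-Hochberg adjustment) on log2(TPM + 1), a scale that understates changes of low genes, and the script was tested on simulated data. Other values came from pandas 2.3.3, scipy 1.17.1 and numpy 2.4.6 under Python 3.11.15, and figures from matplotlib 3.10.9. Genes were named if they had the highest level on a scaffold with 10 or more genes, were among the 10 highest on scaffolds with under 20% of genes expressed, passed the test, or had the 5 largest changes in a direction without overlap where either condition reached 1 TPM. The other genes of scaffold 29 and those of scaffolds 33 and 39 were added after their values were seen. Alternatives varied the threshold, pseudocount, filter, scaling, variance model, block and libraries. The scaffolds, genes and lists were chosen with earlier results of these data known. Nothing ties the replicates to separate cultures beyond the word biological, so p-values measure the spread between these libraries. No sequences are printed, since no genome of this build was used here.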

Additional observations from a re-analysis of the deposited data

How the results depend on the processing

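With 2 libraries per condition, the calls on single genes depended on the settings. On the small scaffolds 2 genes were higher and 0 lower with vitamin C, and over all genes 7 and 7. With no filter on low values the small scaffolds gave 4 higher and 1 lower. Over all genes this setting gave 3 lower. Without the variance trend 1 was higher on the small scaffolds. Over all genes 3 were then lower. Counts of higher genes over all genes are not given for these settings, so the small scaffolds are not set against them. A filter at 1 TPM, which leaves fewer tests, gave over all genes 13 and 11, and at an adjusted p under 0.1, a wider threshold, 14 and 13. With any 1 library left out (untreated replicate 1 or 2, vitamin C replicate 1 or 2) the 2 calls on the small scaffolds did not hold. Counts from these fits are not given, since they leave 1 library in a condition. The lone library is then assumed to vary like the other condition. With all libraries kept and no filter, an unadjusted p under 0.05 from limma gave 43 higher and 21 lower on the small scaffolds. Over all genes it gave 794 and 1255. Without the variance trend it gave 42 and 20, against 662 and 1221 over all genes. Replicate numbers are shared by the conditions, but nothing in the sources links a number to 1 culture, and same-numbered libraries deviated oppositely (correlation -0.26 across 15107 genes). The replicate block gave 6 higher and 2 lower on the small scaffolds and 43 and 85 over all genes. The crossed pairing, chosen after seeing the data, gave 6 and 0, and 100 and 225. Except for the construction given, the cause was not tested. Expressed genes on the small scaffolds stayed within 1.5 times under every threshold tried, down to 396 with vitamin C and 394 untreated at a mean TPM above 1. Their share of summed TPM in untreated mycelium fell to 4.04% without the highest gene, and without scaffolds 29 and 33, a choice made after seeing the data, it was 1.92% with vitamin C and 1.77% in untreated mycelium, since both hold much of the sum.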
